A study of Mus musculus with 46 samples.

Results

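Of 46 single cells from the mouse cochlea, 30 had little message for bone sialoprotein (Ibsp under 1000 CPM, a cell's reads for a gene scaled to a common total) and for the macrophage complement gene C1qb (under 500 CPM). These 30 were divided at a Car3 level of 1000 CPM into 12 Car3-low and 18 Car3-high cells. The other 16 cells were left out, 12 because of Ibsp and 4 because of C1qb. All 46 came from C57BL/6 mice at postnatal day 10 that were heterozygous for Dio2-CreERt2, a tamoxifen-dependent Cre recombinase at the gene of the type 2 deiodinase, and that carried the Ai6 reporter, which turns cells green once Cre has acted. The green label therefore marks cells in which Cre acted, and their descendants, and not the Dio2 level at day 10. Fluorescent cells were picked singly with a suction pipette after papain treatment, and each library is 1 cell. The series set out to find which cochlear cell types express Dio2. No animal is named and all cells carry 1 group label, so the cells count as 1 sample. No difference below could be checked against replicates, no test was made, and every SD is over cells.

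Car3 encodes carbonic anhydrase III, a cytosolic enzyme best known from muscle, fat and liver, and in the cochlea from fibrocytes, lateral wall cells of mesenchymal origin that take part in recycling potassium to the inner ear fluid. Otic mesenchyme gives rise to these fibrocytes, to the cells of the spiral limbus, to the cells that line the fluid spaces and to the bony capsule. Osr1, a zinc finger transcription factor of early mesenchyme, Dpep1, a membrane dipeptidase, and Moxd1, a relative of dopamine beta-hydroxylase, are expressed in several kinds of connective tissue cell.

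Because Car3 chose the sides, its values are a description only. In the Car3-low cells Car3 was at 31.6 CPM at the lowest, 48.6 CPM at the median and 949 CPM at the highest, and in the Car3-high cells at 2890.2, 29607 and 50989 CPM. The 3 values just under the limit were 72.9, 221 and 949 CPM in cells 21, 22 and 35, numbered as in the labels, and the 3 just over it were 2890.2, 4779 and 7179 CPM in cells 33, 26 and 17. The 4 cells left out for C1qb had Car3 at 38.7 to 174 CPM. Of the 12 Car3-low cells, 10 were at or below the highest level in those 4 cells, and cells 22 and 35 were above it. The cells left out for Ibsp had Car3 from 84.5 CPM (cell 8) to 19274 CPM (cell 4). Ibsp was at most 107 CPM among the kept cells and at least 7618 CPM in the cells left out for it. C1qb was at most 148 CPM among the kept cells and at least 3048 CPM in those left out. On GRCm38.p6, Car3 lies on chromosome 3 from 14863538 to 14872381 and Osr1 on chromosome 12 from 9574442 to 9581500. Dpep1 lies on chromosome 8 from 123186235 to 123201812 and Moxd1 on chromosome 10 from 24223517 to 24302783, both on the plus strand.

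Recovered reads in the listed genes numbered 2921064 to 10350249 per Car3-low cell (median 5510891.5) and 3522422 to 7530795 per Car3-high cell (median 5205096.5). Genes at 1 CPM or more had a median of 5399 in Car3-low and 4864 in Car3-high cells, and mitochondrial genes took a median of 0.867% and 1.10% of the total. The Car3-low cells were numbers 20 to 22 and 34 to 42, and the Car3-high cells 13 to 19 and 23 to 33, in 4 alternating runs. Cells 1 to 12 were those left out for Ibsp and cells 43 to 46 those left out for C1qb, so the numbers followed cell class, and what else lies behind the numbering cannot be told apart from it. The 6 macrophage markers other than C1qb summed to at most 101.1 CPM (cell 22) in Car3-low and 4.57 CPM in Car3-high cells. Sox10, Epcam and Myh11, which define Schwann, epithelial and smooth muscle cells, had no read in any Car3-low cell. Other markers of such lists did: the endothelial gene Tek was on in cells 20, 37 and 40, at 569, 112 and 673 CPM, and in no Car3-high cell. Cdh5 of endothelium reached 83.7 CPM and Pecam1 3.97 CPM in Car3-low cells. The epithelial cadherin gene Cdh1 was on in 3 Car3-low and 7 Car3-high cells. Mbp, otherwise a myelin gene, was at 100 CPM or more in 9 of 12 Car3-low and 4 of 18 Car3-high cells. In the cells left out for C1qb, Mbp ran from 35.3 to 9582 CPM. The part of these other markers in the differences below was not tested.

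Cartilage-type matrix genes and secreted inner ear proteins were on in fewer of the Car3-low than of the Car3-high cells, and 9 of 12 Car3-low cells had Osr1, which no Car3-high cell had. The Car3-low cells were not all alike, and 5 of them had Sox9 as the Car3-high cells did. Some osteoblast genes were on in several Car3-low cells, but fewer per cell than in the cells left out for Ibsp. Among 11599 genes with 1 CPM or more in at least 3 kept cells, Car3, Ibsp and C1qb not counted, 478 were higher in Car3-low cells (4.12%) and 392 higher in Car3-high cells (3.38%). The size limit behind both counts was a difference of 2 or more between the means of log2(CPM + 1), with 10 CPM reached in at least 50% of the cells of the higher side. On this scale differences of low genes are understated. The median difference over all 11599 genes was 0.08, Car3-low minus Car3-high, the direction used for every difference below. With a pseudocount of 10 in place of 1 the counts were 95 and 118.

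The limit was often passed without the gene being on in most cells. With on meaning 100 CPM or more, a gene counted as higher in Car3-low cells was on in a median of 41.7% of them, and one counted as higher in Car3-high cells in a median of 50% of those. Of the 478 genes, 5 were on in all 12 Car3-low cells (Anapc5, Anxa5, Cdc42ep4, Prkcdbp and Rsrp1) and 81 were on in no Car3-high cell. Of the 392 genes, 14 were on in all 18 Car3-high cells and 89 in no Car3-low cell. The same counts were not made over all genes tested, so these have no background share to be read against. No gene had all Car3-low cells above all Car3-high cells (0% of genes). Coch was the 1 gene besides Car3 with all Car3-high cells above all Car3-low cells (0.00862%).

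**Figure D1:**
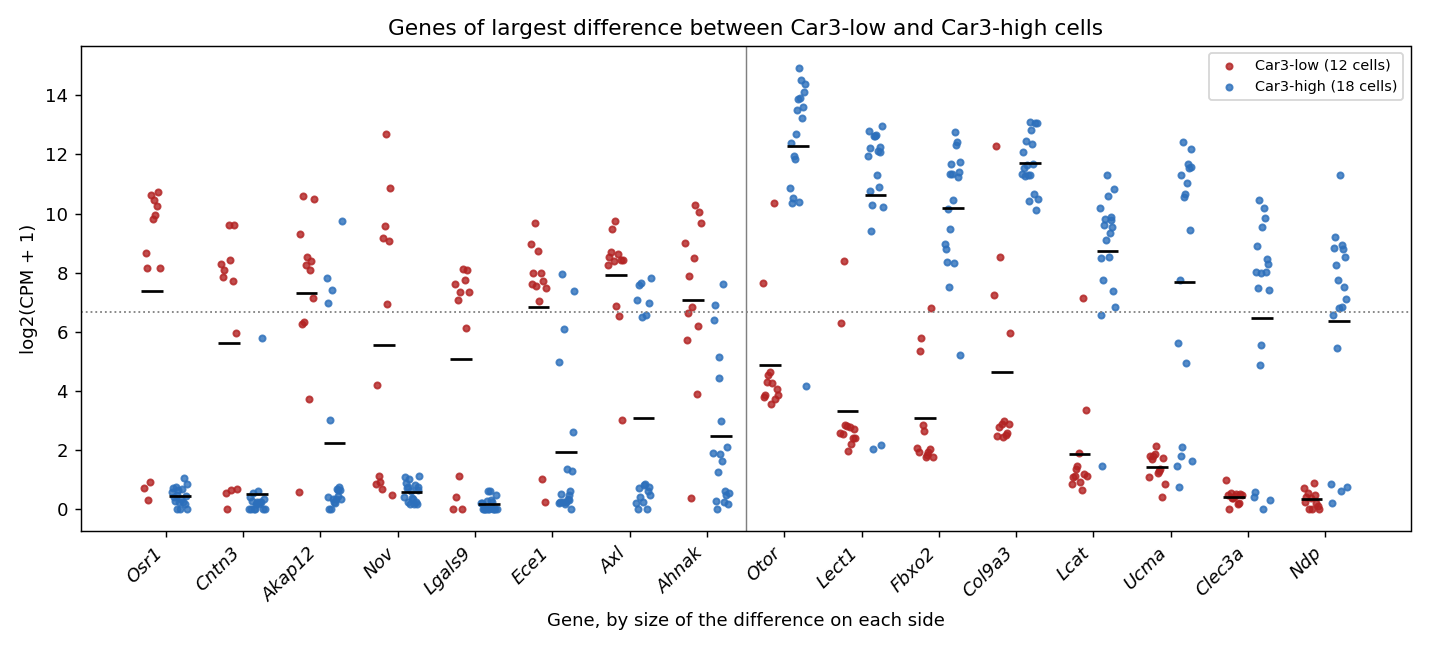
Level of the 8 genes of largest difference on each side in every kept cell, as log2(CPM + 1) on the vertical axis, with Car3-low cells in red (12) and Car3-high cells in blue (18). Bars are means over cells and the dotted line is 100 CPM. Osr1 was on in 9 Car3-low cells and no Car3-high cell, while Otor and Col9a3 were on in 17 and 18 of the Car3-high cells.

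Several of the genes of largest difference on the Car3-high side encode secreted inner ear proteins or cartilage matrix. Coch, which encodes the matrix protein cochlin, was at 33.5 CPM at the lowest, 419 CPM at the median and 6519 CPM at the highest in Car3-low cells, and at 6785, 14230.2 and 97304 CPM in Car3-high cells. The difference was -5.80, and 7 of the 12 Car3-low cells still had 100 CPM or more. Otor, which encodes otoraplin, a small secreted protein of the cochlea, was at 10.8, 17.04 and 1326 CPM in Car3-low and at 17.1, 8112 and 31115 CPM in Car3-high cells (difference -7.40). The Car3-high cell without it was cell 33, and the Car3-low cells above 100 CPM were cells 20 and 39, at 201 and 1326 CPM. Otos, which encodes otospiralin, was under 100 CPM in all 12 Car3-low cells and on in 9 of 18 Car3-high cells (difference -4.33). Set against the 9 Car3-high cells under 1000 CPM of Otos, the Otos difference was 0.14 by construction, and the Gjb2 difference turned from -2.78 to 0.18.

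Lect1, which encodes chondromodulin, a cartilage protein that keeps vessels out, was on in 1 of 12 Car3-low cells (median 5.25 CPM, highest 334 CPM) and 16 of 18 Car3-high cells (median 4145 CPM). Its difference was -7.30. The 3 chains of collagen IX, which decorates the collagen II fibrils of cartilage, differed by -7.08 (Col9a3), -5.65 (Col9a1) and -3.61 (Col9a2), and all 3 were on in 18 of 18 Car3-high cells. Col9a3 reached 5016 CPM in cell 21 and was on in 3 Car3-low cells in all. Sox9, the transcription factor that drives cartilage genes, was at 1.13, 2.16 and 2713 CPM in Car3-low cells and at 179.7, 619 and 2227 CPM in Car3-high cells (difference -4.55). It was on in 5 of 12 and 18 of 18 cells. Col2a1 differed by -3.46 and Col11a2 by -4.64. Within cells 13 to 22 the Sox9 difference was -0.56, the Col2a1 difference 2.24 and the Col11a2 difference 0.22. Within cells 23 to 42 they were -5.77, -5.41 and -6.16.

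Other genes of the Car3-high side were on in hardly any Car3-low cell. Fbxo2, a ubiquitin ligase subunit that binds glycoproteins, was at a median of 3.15 CPM in Car3-low and 1909 CPM in Car3-high cells, with 1 and 17 cells on (difference -7.13). Lcat, the plasma enzyme that esterifies cholesterol, was on in 1 and 16 cells (-6.87). Ucma, a matrix protein of cartilage, Clec3a, a C-type lectin of cartilage, Ndp, the Wnt-like ligand norrin, and Slc5a5, the sodium iodide symporter, were on in no Car3-low cell and in 11, 12, 12 and 12 Car3-high cells. Their differences were -6.25, -6.04, -6.02 and -5.59. Hhatl (-5.72), the proton pump subunit gene Atp6v1c2 (-5.56) and the small proteoglycan gene Fmod (-5.50) were likewise on in 0 of 12 and 11 of 18 cells. The Hhatl difference was only -0.63 within cells 13 to 22.

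On the Car3-low side Osr1 led. It was at 0.225 CPM at the lowest, 650.0 CPM at the median and 1691 CPM at the highest in Car3-low cells, and at most 1.08 CPM in Car3-high cells, which is near the 0.808 CPM reached in the 4 cells left out for C1qb. The mean log2(CPM + 1) was 7.39 ± 4.17 (SD, n = 12 cells) against 0.44 ± 0.31 (SD, n = 18 cells), a difference of 6.95. The sides overlapped only through cells 20, 34 and 35, whose Osr1 was under 1 CPM. Cntn3, a contactin of the immunoglobulin family, was on in 7 Car3-low cells and no Car3-high cell (medians 219 and 0.164 CPM, difference 5.10). Nov, a secreted CCN family protein, reached 6659 CPM and was on in 6 and 0 cells (4.97). Lgals9, a galectin, was on in 7 and 0 (4.92), with a highest value of 275 CPM, below the 567 CPM reached in the cells left out for C1qb. Ece1, which activates endothelin, was on in 10 and 2 cells (4.89), and Axl, a receptor tyrosine kinase, in 10 and 5 (4.85). Axl and Lgals9 are also macrophage genes, and Axl reached 955 CPM in the cells left out for C1qb. Over the 16 other settings tried for single genes, the Axl difference was at least 3.16 and the Lgals9 difference at least 2.58. These settings included leaving out cells with C1qb at 40 CPM or more. The part of macrophage RNA in the Axl and Lgals9 differences was not tested.

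The remaining leaders on this side were Akap12 (5.09), a kinase scaffold, Ahnak (4.61), Col6a1 (4.55), Ier5l (4.48), Olfml2a (4.43), Cav1 (4.34), the coat protein gene of caveolae, Gpc6 (4.30), a cell-surface proteoglycan, and Pltp (4.27), a phospholipid transfer protein. Each was on in 6 to 8 of the 12 Car3-low cells and in 1 to 4 of the 18 Car3-high cells. All 28 leading genes of both sides kept their sign under the 16 other settings tried for single genes and with any 1 cell left out. They were picked for size in these same cells, so a kept sign adds little. Within cells 13 to 22 the Akap12, Nov and Cav1 differences were 1.72, 1.34 and 1.12, below the limit of 2.

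Of the genes named with the comparison, Prss23, a secreted serine protease, differed by 4.27, was on in 5 of 12 Car3-low cells and was at most 1.14 CPM in Car3-high cells. The 5 cells were 21, 37, 39, 40 and 42, with 417, 269, 277, 1244 and 6573 CPM. Dpep1 was at 0.289, 195 and 1127 CPM in Car3-low cells and at 0, 0.226 and 391 CPM in Car3-high cells, a difference of 3.80. It was on in 7 of 12 and 2 of 18 cells, the Car3-high cells being 25 and 26. Moxd1 reached 16899 CPM in Car3-low and 821 CPM in Car3-high cells and was on in 7 of 12 and 8 of 18 (difference 3.09). Of the 7 Car3-low cells, 6 were above every Car3-high cell and cell 34 was at 164 CPM. Dmp1, a phosphorylated matrix protein of osteocytes, was on in 8 of 12 and 9 of 18 cells (difference 2.32), and the Dmp1 difference was -0.0079 once the 6 cells with Sp7 or Runx2 at 100 CPM or more were left out, all of them Car3-low. Dcn, the proteoglycan decorin, did not reach the size limit (-1.59). It was at 344 CPM or more in every Car3-high cell, while Car3-low cells ran from 7.21 to 38531 CPM.

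**Figure D2:**
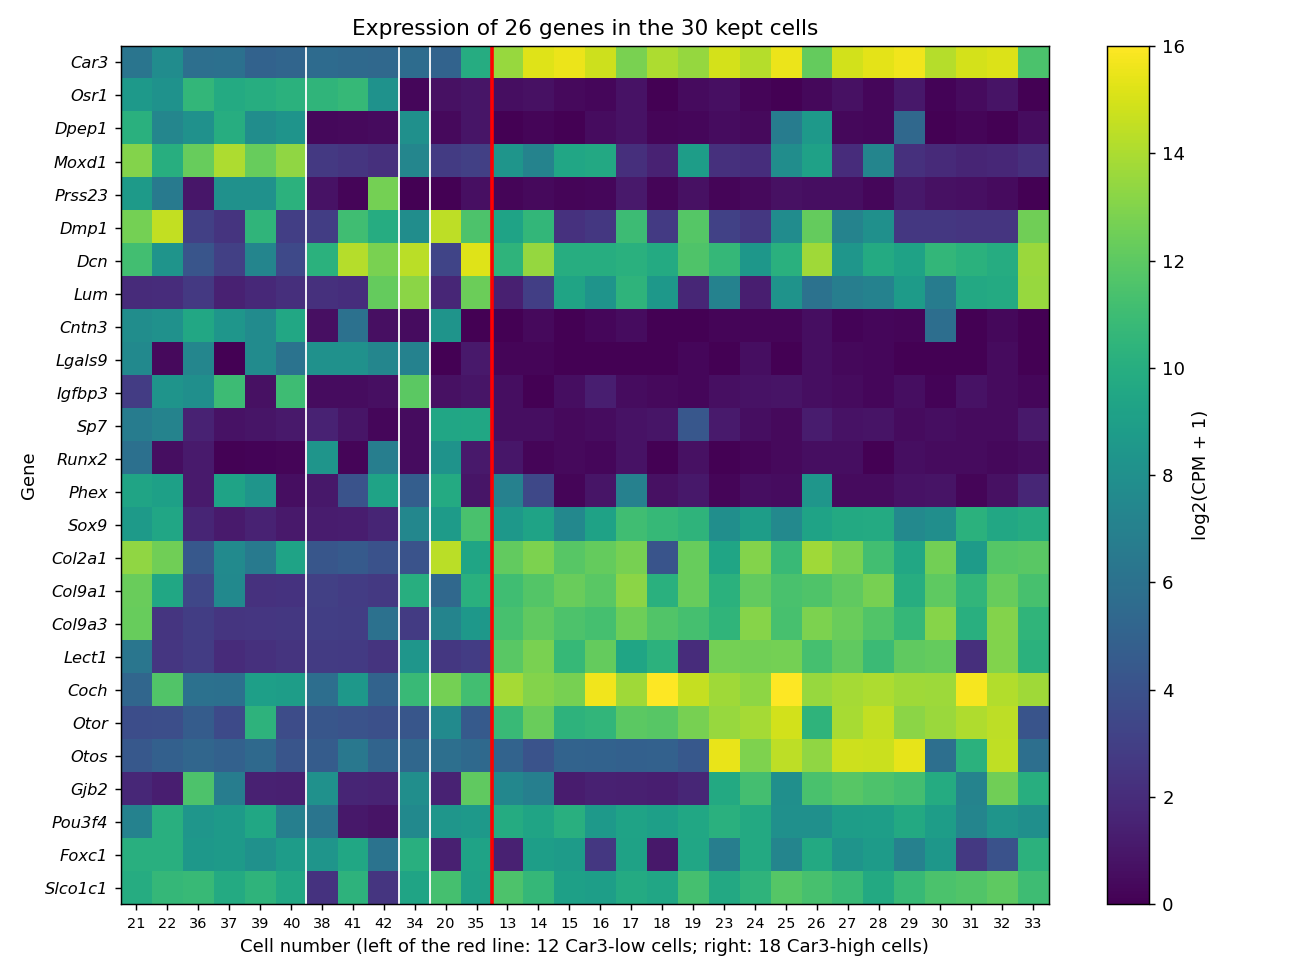
Levels of 26 genes (rows) in the 30 kept cells (columns, by number) as log2(CPM + 1) in colour. The red line divides the 12 Car3-low cells from the 18 Car3-high cells, and white lines divide the Car3-low cells by Osr1 and Dpep1. Sox9 and Col9a1 were on in all 18 Car3-high cells, and in 5 Car3-low cells each.

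Osr1 and Dpep1 at 100 CPM divided the Car3-low cells into 4 sets. Both were on in 6 cells (50%, exact Clopper-Pearson 95% interval 21.1% to 78.9%), Osr1 alone in 3 (25%, 5.49% to 57.2%), Dpep1 alone in 1 (8.33%, 0.211% to 38.5%) and neither in 2 (16.7%, 2.09% to 48.4%). The intervals cover counting error only, and since the cells were picked by hand the shares describe the picked cells. No Car3-high cell had Osr1 on.

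**Figure D3:**
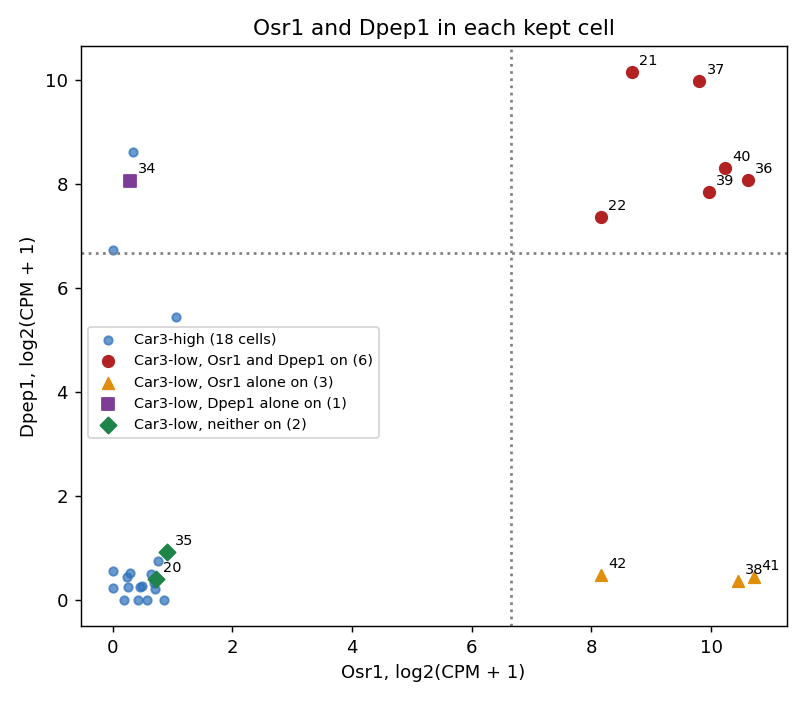
Osr1 (horizontal axis) against Dpep1 (vertical axis) in each kept cell, both as log2(CPM + 1), with dotted lines at 100 CPM and numbers at the Car3-low cells. The upper right holds 6 Car3-low cells and no Car3-high cell, and cells 38, 41 and 42 have Osr1 without Dpep1.

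The 6 cells with both genes were 21, 22, 36, 37, 39 and 40. Their Osr1 was 409, 284, 1564, 891, 996 and 1208 CPM and their Dpep1 1127, 162, 268, 1002, 227 and 314 CPM. Moxd1 was also high in all 6, at 8540.3, 1063 and 5006 CPM in cells 21, 22 and 36, and at 16899, 4959 and 10233 CPM in cells 37, 39 and 40. No other kept cell reached 1000 CPM of Moxd1. Cntn3 was on in all 6, at 210.0 to 785 CPM, and in 1 other kept cell, cell 20. Stk39, a kinase that acts on chloride cotransporters, and Tppp3, a tubulin-binding protein, were on in all 6 and in 2 and 3 other kept cells. Tcerg1l was on in 5 of the 6 and in no other kept cell, and Rcan2, a calcineurin regulator, in 5 of the 6 and in cell 42. The transcription factor genes Ebf2 and Nr2f2 were on in 5 of the 6, and in 3 and 4 other kept cells. These genes were picked after their values were seen, as on in at least 5 of the 6 cells and in at most 6 others.

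Cells 38, 41 and 42 had Osr1 at 1392, 1691 and 284 CPM without Dpep1, and Moxd1 at most 5.20 CPM. Cells 38 and 41 shared Nov at 6659 and 1868 CPM, Eln, the elastin gene, at 3659.6 and 1161 CPM, and Mgp, an inhibitor of calcification, at 3669 and 2879 CPM. Cell 38 alone among the kept cells had Slc47a1, an organic cation exporter, at 1571 CPM, and it also had Crabp2, a retinoic acid binding protein, at 405 CPM and Col1a1 at 2498 CPM. Cell 41 had Dcn at 19448 CPM without Lum (3.22 CPM). In cell 42 Prss23 was at 6573 CPM, Dcn at 6939.7 CPM, Lum, another small proteoglycan, at 4856 CPM and Aldh1a2, a retinoic acid synthesis gene, at 506 CPM. Pou3f4 and Tbx18, transcription factors of otic mesenchyme, were at 1.04 CPM or less in cells 41 and 42, against 152 CPM or more and 17.4 CPM or more in every Car3-high cell. In cell 38 they were at 72.8 and 1.44 CPM. Cells 38 and 42 were the only kept cells without Slco1c1, a thyroxine transporter (4.04 and 4.56 CPM), where all others had at least 504 CPM.

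Cells 34 and 35 had the most Dcn and, among Car3-low cells, the most Lum, with 20884 and 38531 CPM of Dcn and 9733 and 5434 CPM of Lum. They also had the gap junction genes Gjb2, at 237 and 4339 CPM, and Gjb6, at 1206 and 3208 CPM. Both genes were also on in cells 36, 37 and 38, with Gjb2 at 2978, 109 and 273 CPM. Cell 35 was the closest to the Car3 limit, and it had Sox9 at 2713 CPM and Sp7, the osteoblast transcription factor, at 726 CPM. Cell 34 had Dpep1 at 266 CPM and Igfbp3, an IGF-binding protein, at 4014 CPM. Cell 20 had Sp7 at 704 CPM and Runx2, the other osteoblast transcription factor, at 292 CPM. Its Dmp1 was at 21979.5 CPM, its Phex, a peptidase of osteocytes, at 898 CPM and its Col2a1 at 21229.8 CPM. Sp7, Dmp1 and Phex were also on in cells 21 and 22. The highest Dmp1 of the kept cells, 23208 CPM, was in cell 22. Helt, a transcription factor gene, was at 3897 CPM in cell 20 and at most 0.676 CPM in any other kept cell.

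Sox9 gave a second division, chosen after its values were seen. It was at 168 CPM or more in cells 20, 21, 22, 34 and 35 and at 2.18 CPM or less in cells 36 to 42. Col11a2 was on in all 5 cells with Sox9 and none of the 7 without it, with medians of 787 and 3.65 CPM. Col9a1 was on in 4 of 5 and 1 of 7 (medians 1042 and 6.17 CPM), Col2a1 in 4 of 5 and 2 of 7 (5882 and 22.1 CPM), and Fzd9, a Wnt receptor gene, in 4 of 5 and 0 of 7. Dmp1 was on in 5 of 5 and 3 of 7. Osr1 went the other way, on in 2 of 5 cells with Sox9 and in 7 of 7 without. Osr1 was 409 and 284 CPM in cells 21 and 22, which had Sox9 at 427 and 694 CPM. The cells without Sox9 are also the last 7 Car3-low cells in number, and the 2 cannot be told apart.

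Bone genes were present on the Car3-low side although Ibsp was low. Sp7 was on in 4 of 12 Car3-low cells (20, 21, 22 and 35, at 704, 103, 139 and 726 CPM) and Runx2 in 3 (20, 38 and 42, at 292, 328 and 114 CPM), and neither in any Car3-high cell. Their differences, 2.46 and 2.37, missed the rule on 50% of cells. Phex was on in 6 of 12 and 3 of 18 cells (difference 3.68). Alpl, the phosphatase of mineralizing cells, was on in cells 22, 37 and 40, at 181, 716 and 311 CPM, and at most 93.3 CPM in Car3-high cells. Bglap2, Ifitm5 and Dlx5, osteoblast genes too, were under 100 CPM in every Car3-low cell, with highest values of 69.2, 27.95 and 61.9 CPM. Of the 8 osteoblast markers other than Ibsp, Car3-low cells had 0 to 3 on, Car3-high cells 0 to 2 and the 12 cells left out for Ibsp 4 to 8. Spp1, osteopontin, ran the other way, on in 4 of 12 and 14 of 18 cells (-3.19).

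Whole profiles showed the same unevenness. By Pearson's r over the 11599 genes, the most similar of the other 45 cells was a Car3-high cell for 18 of 18 Car3-high cells. For Car3-low cells it was another Car3-low cell in 7 of 12, a Car3-high cell in 3 (cells 34, 35 and 38) and a cell with Ibsp at 1000 CPM or more in 2 (cells 20 and 42). The median r was 0.38 over 153 pairs of Car3-high cells, 0.33 over 66 pairs of Car3-low cells and 0.33 over the 216 pairs of 1 of each. These values are across genes of single cells, which share depth and sparse detection and are not independent replicates.

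Gene lists are given with 2 counts, members higher by at least 1 in Car3-low and in Car3-high cells, over members at 10 CPM or more in at least 20% of either side. Over all 8787 genes measured in this way, 25.2% were higher by at least 1 in Car3-low and 18.8% in Car3-high cells, and the median difference was 0.12. Of 11 cartilage collagen and matrix genes, 1 was higher in Car3-low and 8 in Car3-high cells (median -3.61), and of 6 cochlear fibrocyte markers apart from Car3, 1 and 5 (median -3.56). At least 3 of the 7 fibrocyte markers other than Car3 were on in 14 of 18 Car3-high and 3 of 12 Car3-low cells. Of 6 small leucine-rich proteoglycans, which bind collagen fibrils, 1 was higher in Car3-low and 5 in Car3-high cells (median -2.02), among them Fmod, Omd (-2.99) and Lum (-2.43). Lum differed by 1.05 once cells with 4 or more immediate early genes on were left out. Bgn, biglycan, was the member higher in Car3-low cells (2.13).

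Of 13 other collagen chains, 7 were higher in Car3-low and 4 in Car3-high cells (median 1.86). Col6a1 (4.55) and Col6a2 (3.34), chains of the beaded filaments around cells, Col5a1 (3.37), which sets fibril width, and Col4a1 (2.29) of basement membranes were on in 6, 6, 5 and 3 of 12 Car3-low and 1, 1, 1 and 2 of 18 Car3-high cells. Col8a2 (-3.21) and Col8a1 (-2.34) lay on the other side, and Col8a1 differed by 0.29 between medians. Of 17 matrix glycoproteins, 8 and 4 were higher (median 0.74). Eln (3.997), Nid1 (3.54), a basement membrane linker, and Fbln2 (3.13) were on the Car3-low side, and Thbs1 (-3.53) and Fbln1 (-2.75) on the Car3-high side. Fn1, fibronectin, differed by 3.26 and was on in 4 Car3-low cells and no Car3-high cell.

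Of 10 measured genes of IGF signalling, 6 were higher in Car3-low and 1 in Car3-high cells (median 1.34). Igf1 was at a median of 303 CPM in Car3-low and 1.04 CPM in Car3-high cells (on in 7 and 6, difference 3.11). In the 4 cells left out for C1qb, Igf1 ran from 2.33 to 1678 CPM. The part of macrophage RNA in the Igf1 difference was not tested. Igf2 was at medians of 465 and 38.1 CPM in Car3-low and Car3-high cells (10 and 8 cells, 2.97). Within cells 13 to 22 the Igf1 and Igf2 differences were 0.25 and -1.52, and within cells 23 to 42 they were 4.68 and 5.39. Igfbp5, a binding protein held in bone matrix, was on in 9 of 12 and 8 of 18 cells (3.16). Its difference was 0.77 within cells 13 to 22 and 4.49 within cells 23 to 42. Igfbp3 was on in 5 Car3-low cells, at 253 to 4014 CPM, and at most 1.51 CPM in Car3-high cells (4.23). In these 5 cells, 22, 34, 36, 37 and 40, Dpep1 was also on. The Igfbp3 difference was 3.41 within cells 13 to 22 and 4.50 within cells 23 to 42.

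Of 17 measured transcription factors of otic mesenchyme and patterning, 8 were higher in Car3-low and 6 in Car3-high cells. Foxp2 (3.61), Prrx1 (3.11) and Foxd1 (2.85) followed Osr1 on the Car3-low side, on in 5, 3 and 7 of 12 cells. Six2 (-4.31) and Eya1 (-2.69), partners in the same regulatory network, were on in 1 and 2 Car3-low and 11 and 12 Car3-high cells. Tbx18 differed by -2.33 and Pou3f4 by -2.03. Foxc1, a forkhead factor of skull and meninges, was on in 10 of 12 and 13 of 18 cells (1.33). Meningeal and arachnoid markers reached 3 of 8 in cells 36 and 38, with Foxc1 and Crabp2 in both, Cldn11 in cell 36 and Slc47a1 in cell 38, and in no Car3-high cell. Ptgds, the prostaglandin D synthase gene and the member of largest difference in that list, ran the other way (-2.23), on in 1 of 12 Car3-low and 5 of 18 Car3-high cells.

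In other signalling lists, Bmp5 (-4.15) and Fzd9 (-4.45) lay on the Car3-high side and Bambi (2.80), a decoy receptor for BMP, on the Car3-low side. Of 13 BMP and TGF-beta genes 5 and 3 were higher, and of 14 Wnt genes 5 and 5. Fzd9 differed by 0.56 within cells 13 to 22. Aldh1a1, which makes retinoic acid, was on in 1 of 12 and 14 of 18 cells (-5.08), and Rarg, a retinoic acid receptor, in 3 and 0 (2.20). Fgfr1 was on in 11 of 12 and 9 of 18 cells (2.39). Among carbonic anhydrases besides Car3, Car14 (-3.70) and Car2 (-2.65) were higher in Car3-high cells, on in 17 and 13 of 18, and Car11 (2.19) in Car3-low cells.

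Genes of thyroid hormone handling differed in transporters more than in Dio2. Dio2 was on in 3 of 12 Car3-low cells (20, 21 and 37, at 217, 158 and 183 CPM) and 5 of 18 Car3-high cells, with medians of 4.78 and 27.8 CPM and a difference of -0.97, less than its SD over cells on either side (2.98 and 3.07). Slco1a4, an organic anion transporter, was on in 7 of 12 and 17 of 18 cells (-3.72), and Slc7a8, an amino acid transporter, in 2 and 8 (-3.15). Slco1c1 was on in 10 of 12 and 18 of 18 (-1.80). Thra and Thrb, the receptor genes, differed by 0.45 and 0.28, and Klf9, which thyroid hormone induces in many tissues, by 1.72. Of 11 measured members, 3 were higher by at least 1 in Car3-low and 4 in Car3-high cells.

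**Figure D4:**
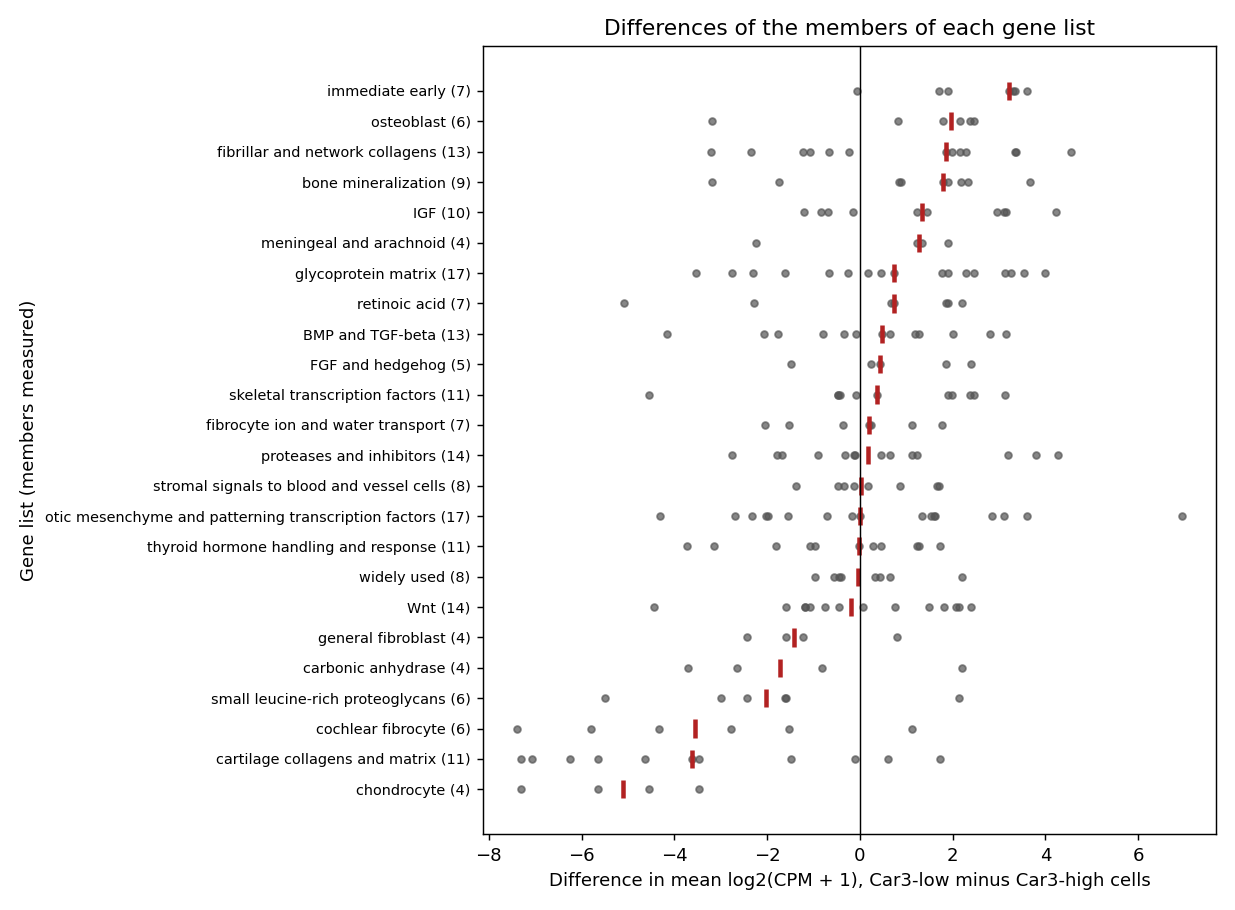
Difference in mean log2(CPM + 1), Car3-low minus Car3-high cells, for each measured member (grey points) of the lists with at least 4 measured members. Red bars are list medians and the number of members stands beside each name. Cartilage (-3.61) and fibrocyte (-3.56) lists lie on the Car3-high side and immediate early genes (3.21) on the Car3-low side.

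Immediate early genes, which cells switch on within minutes of stress or stimulation, also differed. Of 7 measured, 6 were higher by at least 1 in Car3-low cells and none in Car3-high cells (median 3.21). Egr1 was at a median of 2531 CPM in Car3-low and 77.5 CPM in Car3-high cells (3.31), Fos at 784 and 4.08 CPM (3.21), Jun at 625 and 3.34 CPM (3.34) and Ier2 at 692 and 154 CPM (3.61). The 8 listed genes summed to 50.4 to 40342 CPM per Car3-low cell (median 6338) and 16.002 to 20452 CPM per Car3-high cell (median 701), so the ranges overlapped. Cells with 4 or more of these genes on numbered 8 of 12 and 5 of 18. Leaving these cells out kept 4 Car3-low and 13 Car3-high cells, and by its construction lowered the Fos difference to -0.28 and the Egr1 difference to 0.29. The Car3-low cells kept were 34, 36, 41 and 42, and of these only cell 34 had Sox9 on. In the cells kept the Osr1 difference was 6.98, the Coch difference -6.65 and the Sox9 difference -5.997, while the Lum difference changed sign. The part of immediate early expression in these differences was not tested. Among 8 widely used genes, 1 was higher in Car3-low cells by at least 1 (Tubb5, 2.20), and Actb and Gapdh differed by -0.45 and -0.56.

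The genes whose levels over the 30 cells were most like each marker were ranked by Pearson's r on log2(CPM + 1). The cells share depth and sparse detection, and a high r can rest on a few cells. For Osr1 these were Nov (r = 0.86), Igsf3 (0.83), Lgals9 (0.77), Eln (0.76) and Adamtsl4 (0.75). For Dpep1 they were Sult5a1 (0.74), Moxd1 (0.73), Tcerg1l (0.72), Igfbp3 (0.70) and Pros1 (0.70). Moxd1 was most like Gtf2h1 (0.74), Dpep1, Tcerg1l (0.73), Stk39 (0.70) and Ccdc85a (0.69). Prss23 was most like Prss23os (0.99), Rcan2 (0.91), Robo2 (0.88), Adamts1 (0.81) and Enpep (0.81). Prss23os is named as an opposite-strand gene of Prss23, and without stated use of strand their reads cannot be told apart. Dmp1 reached at most 0.68 (Pdlim7), followed by Rmnd1, Stoml2, Gnb4 and the osteocyte gene Phex (0.62). Dcn reached at most 0.59 (Ufc1), ahead of Calm2, Lamb1, Set and Crispld1.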

How the data were processed

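RNA of 46 single cells was made into cDNA with SMART-Seq v4 and into libraries with ThruPLEX, per the labels' protocols. The submitters' processing notes name bcl2fastq 2, STAR 2.7.3a and the builds GRCm38 and mm10. How reads were counted, on which annotation and with what strand setting is not given in the sources used here. Values are CPM as deposited by the authors, for 29871 genes. Every cell's nonzero values came out as whole reads (100% within 0.01 read) once divided by the worth of 1 read. No count test could be run because there is 1 sample. Reads carry no molecular identifiers.

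Cells were chosen by Ibsp, C1qb and Car3. Means of log2(CPM + 1) were compared without a test, over genes at 1 CPM or more in at least 3 kept cells. Named genes are the 14 of largest difference per direction under the size rule (leaving out mitochondrial and ribosomal protein genes, Gm, LOC and Rik symbols, and symbols that a spreadsheet program had altered), 6 markers given with the comparison, up to 6 members of each list and the 5 genes most like each marker by r (among genes at 100 CPM or more in at least 3 kept cells). All 375 list symbols matched. Genes named for single cells or small sets were chosen after seeing values. The members and lists were chosen with earlier results of these data known. The script was tested on simulated data. Positions are from RefSeq on GRCm38.p6. Python 3.11.15, pandas 2.3.3, numpy 2.4.6 and scipy 1.17.1 were used.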

Additional observations from a re-analysis of the deposited data

How the results depend on the processing

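The count of genes higher in Car3-low cells (478) was 748 with a pseudocount of 0.1, 95 with 10, 1059 with medians in place of means and 136 at a least difference of 3. It was 925 without cells with Sp7 or Runx2 at 100 CPM or more and 1098 without cells with Dmp1 at 1000 CPM or more. It was 1183 without cells with 4 or more immediate early genes on and 1553 within cells 13 to 22. These last 4 settings leave 6, 6, 4 and 3 Car3-low cells. Of the 478 genes, 342, 369, 321 and 299 were still counted under them, so many genes in the larger counts were others. The count higher in Car3-high cells (392) was 634, 118, 962 and 135 under the first 4 settings, 790 without cells with 4 or more immediate early genes on, 666 within cells 13 to 22 and 687 within cells 23 to 42. Leaving out 1 cell gave 388 (without cell 21) to 502 genes and 356 to 462 genes. Median-of-ratios scaling moved the median of all genes from 0.08 to 0.15, and gave counts of 530 and 357. The 2 cell-number spans, the setting on immediate early genes and a setting on C1qb were chosen after seeing the data. That C1qb setting left out cells at 40 CPM or more and gave counts of 507 and 437.

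Of 2512 differences of named genes under other settings, 17 turned sign after passing the size rule. Without cells with Sp7 or Runx2, the Dmp1 difference was -0.0079 and the Gdf10 difference -0.56. Without cells with Otos at 1000 CPM or more, the Otos difference was 0.14, the Gjb2 difference 0.18, the Ptgds difference 0.078 and the Gdf10 difference -0.084. Without cells with 4 or more immediate early genes on, Lum was 1.05 and Fos -0.28. Between medians, Col8a1 was 0.29. Within cells 13 to 22, Otos was 0.25, Col2a1 2.24, S100b 0.72, Car2 0.073, Col11a2 0.22, Serpine2 0.79, Fzd9 0.56 and Igf2 -1.52. The cause was not tested. Of 89 named genes past the size rule, 81 had the same sign in both number spans. The genes passed the rule in these same cells, so a shared sign adds little. Cells 13 to 22 held only 3 Car3-low cells. No paired analysis was possible because all cells carry 1 group label. Thinning to 2921064 reads per cell gave counts of 481 and 402.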
